A study of Mus musculus with 8 samples.

Results

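This account covers 10 genes for cytokines that recruit or shape myeloid and type 2 immune cells, and how they were expressed in sorted mouse sarcoma cells with and without targeting of Mif. The genes were taken by name, with earlier results of these data known. They were the alarmin Il33 and its receptor Il1rl1, and the IL-6 family cytokines Il6, Il11 and Lif. The others were the colony-stimulating factors Csf1, Csf2 and Csf3, the second CSF1R ligand Il34, and Tslp. All 10 were found among the 35498 genes of the deposited tables, and all 10 passed the low-count filter that left 16309 genes for testing. Tslp passed with only 1 to 21 reads per library.

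Every group carried the same starting changes: p53 knockout (p53-/-) and Ccne1 overexpression, in transformed mesenchymal stem cells of C57BL/6 origin. There were 4 groups of 2 libraries each, per the sample titles. They were sgSCR (control guide RNA, Mif wild type), sgMif (guide RNA against Mif, labelled Mif knockout), shSCR (control hairpin RNA, Mif wild type) and shMif (hairpin RNA against Mif, labelled knockdown). The guide groups also carried Cas9, and the labels and the design text differ on whether the hairpin groups did. The cells were implanted subcutaneously on scaffolds of polyurethane in secondary recipients, and the RNA came from cells sorted on a fluorescent marker that the sources do not name. No source used here gives the number of clones, the age of the mice or whether each library is a tumour of its own, so p-values measure the spread between these libraries only, which may be technical.

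Depth ran from 19042235 to 51819308 reads per library. Mif held 377 and 455 CPM (read counts scaled to a common library size) in sgSCR 1 and 2 and 221 and 222 in sgMif 1 and 2 (log2 fold change -0.91, edgeR adjusted p = 0.215). It held 170 and 375 CPM in shSCR and 277 and 222 in the libraries labelled shMif (-0.13, adjusted p = 0.925), so at the transcript the hairpin libraries overlapped and their label could not be checked. Reads on olfactory receptor genes, defined here as a library class because 5 libraries held over 1000 CPM of them, set sgMif 2, shSCR 2 and shMif 2 apart at 380 to 553 CPM. All 10 mesenchymal markers checked, among them Vim, Col1a1 and Pdgfra, were expressed and summed to 10114 to 17343 CPM.

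IL-33 is a nuclear cytokine of the IL-1 family that barrier and stromal cells release on damage. It signals through ST2, the product of Il1rl1, paired with IL1RAP, on mast cells, group 2 innate lymphoid cells, regulatory T cells and eosinophils, and the same gene also makes a secreted, soluble ST2 that traps the ligand. IL-6, IL-11 and LIF share the signalling chain gp130, encoded by Il6st, and act through JAK kinases and STAT3. M-CSF (Csf1) and IL-34 both act on CSF1R to maintain macrophages, GM-CSF (Csf2) acts through the shared beta chain Csf2rb on myeloid cells, G-CSF (Csf3) drives neutrophil production, and TSLP acts with IL-7 receptor alpha on dendritic and type 2 cells.

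Sequences around the transcript starts are shown first, because Il33, Il1rl1 and Il11 each have a pair of alternative starts and the reads fell mostly on 1 of them. They are the 250 bases before the start from RefSeq (GRCm38.p6, the assembly of mm10), which held windows for 7 of the 10 genes. Capitals mark matches, on either strand, to AP-1 (TGANTCA), CRE (TGACGTCA), C/EBP (TTGCNNAA), GAS (TTCNNNGAA), the TATA box (TATAAA) and the NF-kB consensus.
Il33 proximal start, chr19:29945540-29945789 (+): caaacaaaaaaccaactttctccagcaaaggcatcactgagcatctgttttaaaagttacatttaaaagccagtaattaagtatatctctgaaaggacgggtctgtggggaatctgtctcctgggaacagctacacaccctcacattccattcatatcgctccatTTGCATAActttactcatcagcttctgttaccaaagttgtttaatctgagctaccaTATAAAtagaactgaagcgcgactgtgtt
Il33 distal start, chr19:29924863-29925112 (+): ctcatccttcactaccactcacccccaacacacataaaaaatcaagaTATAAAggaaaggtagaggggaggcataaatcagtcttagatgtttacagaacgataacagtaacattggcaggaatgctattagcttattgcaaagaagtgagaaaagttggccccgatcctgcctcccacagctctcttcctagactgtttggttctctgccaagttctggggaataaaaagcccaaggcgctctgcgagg
Il1rl1 proximal start, chr1:40439379-40439628 (+): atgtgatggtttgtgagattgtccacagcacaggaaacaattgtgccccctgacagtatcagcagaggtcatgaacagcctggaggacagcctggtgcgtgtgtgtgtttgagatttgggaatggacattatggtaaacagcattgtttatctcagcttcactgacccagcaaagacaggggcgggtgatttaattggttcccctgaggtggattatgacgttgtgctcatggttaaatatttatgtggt
Il11 proximal start, chr7:4778142-4778391 (-): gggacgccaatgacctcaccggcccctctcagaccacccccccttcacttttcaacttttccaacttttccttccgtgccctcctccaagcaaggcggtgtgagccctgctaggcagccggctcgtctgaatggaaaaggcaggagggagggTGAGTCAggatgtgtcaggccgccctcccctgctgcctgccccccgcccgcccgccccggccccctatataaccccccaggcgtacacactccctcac
Il6, chr5:30012864-30013113 (+): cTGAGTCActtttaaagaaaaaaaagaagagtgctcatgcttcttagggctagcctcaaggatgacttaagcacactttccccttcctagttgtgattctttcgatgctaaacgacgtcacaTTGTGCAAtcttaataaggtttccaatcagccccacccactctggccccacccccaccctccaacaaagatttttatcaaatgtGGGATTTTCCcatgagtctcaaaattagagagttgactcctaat

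The proximal Il33 window held a TATA box 29 bases and a C/EBP match 85 bases before the start, while the distal window held a TATA-box match 203 bases before it. Il6 had an NF-kB match at 44 bases, a C/EBP match at 128 and an AP-1 match at 249, and Il11 had an AP-1 match at 98. None of these motifs was found in the proximal Il1rl1 window. No matches overlapped in these windows. Of all 32851 promoter windows of this length, 12.4% held the TATA box, 9.56% C/EBP, 7.25% NF-kB, 7.02% GAS, 6.75% AP-1 and 1.55% CRE, so single matches are common. A match is a description of the letters only.

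Levels per length, as the length-scaled TPM values, put the 10 genes in a wide range. Il1rl1 was the highest, with a lowest, median and highest TPM of 150, 188 and 281 over the 8 libraries, followed by Csf1 at 60.9, 95.7 and 152. Il34 came next at 17.1, 26.8 and 67.7, then Lif at 3.84, 9.63 and 16.5. The median TPM was 6.60 for Il33, 4.43 for Il11, 4.28 for Csf2, 1.34 for Il6, 0.424 for Csf3 and 0.267 for Tslp. Csf3 and Tslp had the widest spans, 27.4-fold and 24.4-fold between the lowest and highest library, and rest on few reads, while Il33 spanned 19.5-fold with 90 to 1659 reads. Il1rl1 was the steadiest, with a span of 1.87-fold.

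**Figure D1:**
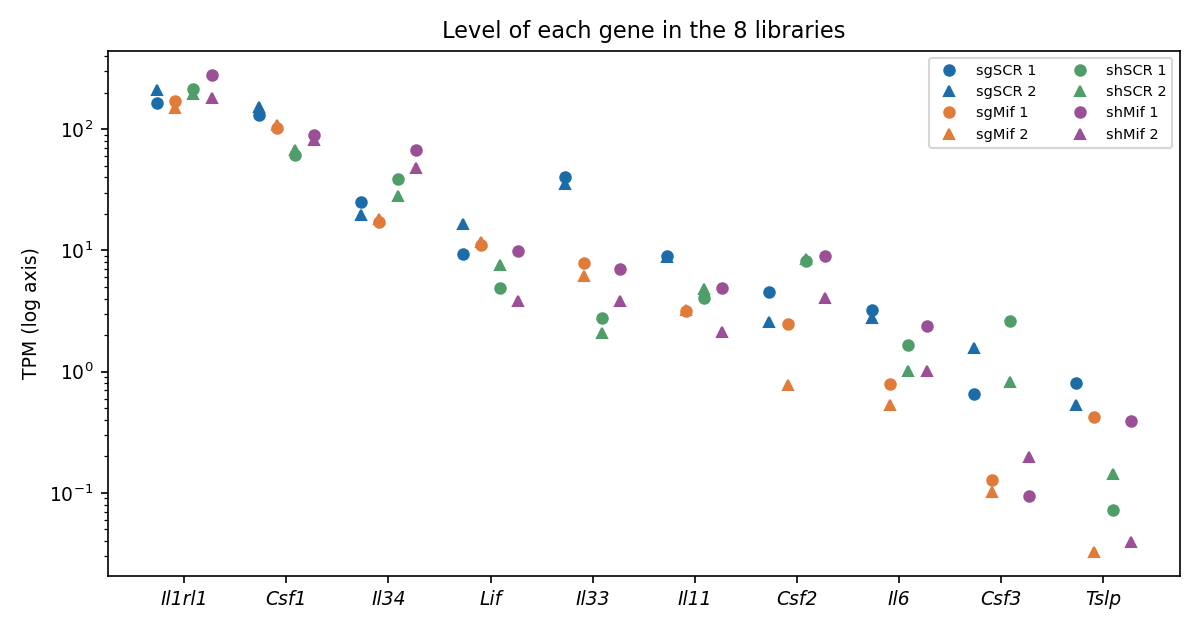
TPM of each of the 10 genes on a log axis, ordered by median, with 1 point per library (circles library 1, triangles library 2) coloured by group. Il1rl1 and Csf1 lie highest in every library, and the sgSCR points of Il33, at 40.4 and 35.3 TPM, stand clear of the other 6.

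Il33 (ENSMUSG00000024810, chromosome 19, 29925114 to 29960718, plus strand, mm10) was high in the control guide cells and low in every other library. It held 41.7 and 38.3 CPM in the sgSCR libraries, against 7.80 and 5.25 in sgMif. The hairpin libraries lay lower still, at 2.33 and 2.42 CPM in shSCR and 5.10 and 3.98 in the libraries labelled shMif. The order of the group means was sgSCR, sgMif, shMif, shSCR, at 40.0 ± 2.43, 6.53 ± 1.80, 4.54 ± 0.788 and 2.38 ± 0.062 CPM (SD, n = 2). No neighbouring groups overlapped in CPM, although in TPM the sgMif and shMif groups did.

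Il33 fell 6.15-fold in sgMif against sgSCR (log2 fold change -2.62 ± 0.26 SE, edgeR adjusted p = 0.0148). It was the only member of the 10 called in this comparison, where 0.987% of all genes tested were called in either direction. Leaving out sgSCR 1, sgSCR 2, sgMif 1 or sgMif 2 gave -2.56, -2.66, -2.92 and -2.35, and the call was lost each time (edgeR adjusted p = 0.0837, 0.116, 0.0668 and 0.124), in fits that called 0 to 2 genes of all. The larger gap was between the control groups: Il33 was 16.8-fold lower in shSCR than in sgSCR (-4.07 ± 0.28, adjusted p = 0.0013). This comparison uses the same sgSCR libraries as the one before, so the 2 folds are not independent. The libraries labelled shMif stood above shSCR by 0.93 ± 0.26 on the log2 scale (adjusted p = 0.448), which did not pass. The change with the Mif label therefore differed between the systems by 3.55 ± 0.36 (edgeR adjusted p = 0.0375 for the difference itself, where 0.092% of all genes were called, 0.0858% higher and 0.00613% lower). That call was lost with length-scaled counts (adjusted p = 0.0771), with coding transcripts only (0.0522) and without sgSCR 1, sgSCR 2, sgMif 2, shMif 1 or shMif 2 (0.0651 to 0.166).

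Most Il33 reads, though not most of the TPM in every library, were assigned to the transcript from the proximal start. Its TPM was 0.46 to 1.5 times that of all other Il33 transcripts together over the 8 libraries. Il33-201, which begins at 29945790, took 94.0 and 95.8% of Il33 reads in sgSCR 1 and 2, 94.9 and 89.4% in sgMif, 92.3 and 95.8% in shSCR, and 75.0 and 79.1% in the libraries labelled shMif. The shMif shares were the lowest, with 95% exact binomial intervals of 65.0 to 82.9 and 71.6 to 85.7%, which cover counting error only and not the uncertainty of assigning reads between overlapping transcripts. Il33-202, from the distal start at 29925114, has the same coding length of 798 bases and was given 15.3 and 15.4 reads in shMif 1 and 2 and 0 in the other 6 libraries. The shorter Il33-204 and Il33-205 begin close to it, at 29925115 and 29925132. Il33-204 held 67.9 and 32.2 reads in sgSCR 1 and 2 and 8.79 and 16.2 in sgMif. In shSCR it held 1.0 and 5.0, and in the libraries labelled shMif 4.92 and 5.78. Il33-205 held 31.4 reads in sgSCR 1, 8.43 in sgMif 2 and 8.07 in shMif 2.

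The genes nearest to Il33 in pattern were found by the root mean square difference of centred log2 CPM over the 8 libraries, among 11056 genes. Of the 5 nearest, 4 are given here: Cbr2, a carbonyl reductase (0.328), Ptx3, the long pentraxin (0.455), Pcsk5, a proprotein convertase (0.501), and Prss35, a serine protease family member (0.510). Cbr2 held 10.01 and 11.1 CPM in the sgSCR libraries, against 2.88 and 1.42 in sgMif, 0.415 and 0.464 in shSCR and 1.44 and 1.51 in the libraries labelled shMif. As follows from choosing them by pattern, these 4 were higher in both sgSCR libraries than in the other 6. Of them Prss35 alone passed in sgMif against sgSCR (log2 fold change -2.67, edgeR adjusted p = 0.033).

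**Figure D2:**
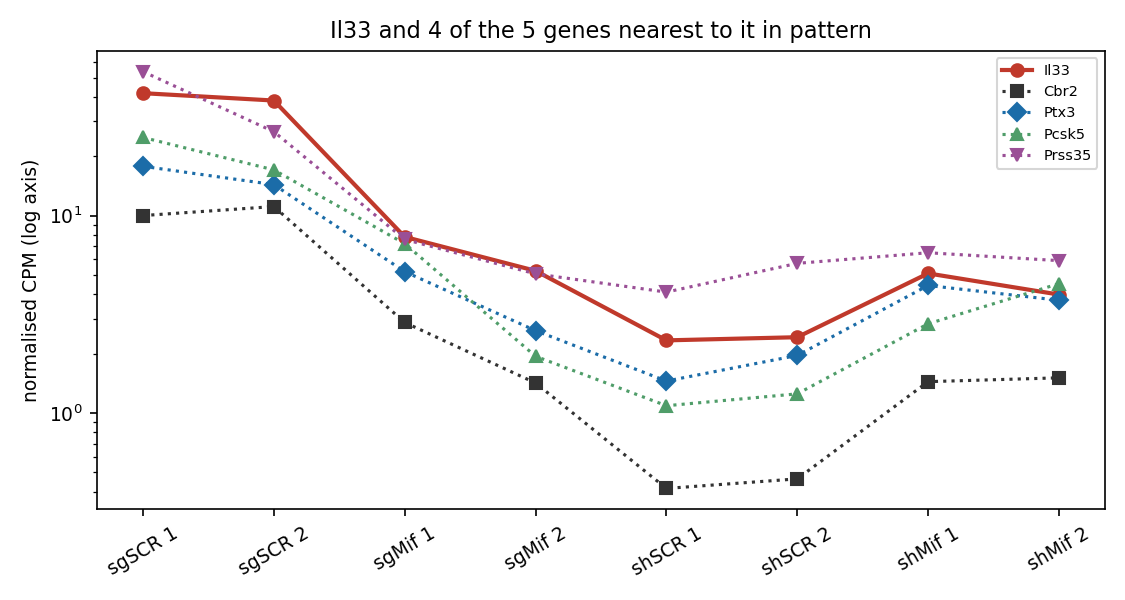
Normalised CPM on a log axis for Il33 and 4 of the 5 genes nearest to it in pattern, in each of the 8 libraries, with lines joining the values of a gene only to guide the eye. The sgSCR libraries are the highest for the 5 genes shown, at 41.7 and 38.3 CPM for Il33.

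Markers of other cells that make or answer IL-33 were measured in the same libraries. The 8 skin fibroblast markers, which mesenchymal tumour cells can share, summed to 1615 and 1319 CPM in the sgSCR libraries, against 512 and 369 in sgMif, 758 and 929 in shSCR and 968 and 962 in the libraries labelled shMif. Of them Dcn, decorin, fell in sgMif (-2.18 ± 0.23, edgeR adjusted p = 0.0149), and 7 of the 8 had negative fold changes. In shSCR against sgSCR 3 of the 8 fell, where 1.79% of all genes did. The sum, mostly Dcn, was lowest in sgMif, as were the group means of Dcn, Pi16, Dpp4, Cd34 and Ly6a. Lum, Dpt and Clec3b were lowest in shSCR, as Il33 was. Keratinocyte markers summed to 1.69 to 4.02 CPM, with Krt5 at 0 in 7 libraries. The endothelial sum, 32.6 to 271 CPM, was mostly Pecam1, while Cdh5 held 7.14 and 7.48 CPM in the sgSCR libraries, against 26.0 and 5.59 in sgMif. The part of these cells in the Il33 result was not tested, and in sorted bulk RNA fewer cells of a type and less RNA per cell cannot be told apart.

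Il1rl1 (ENSMUSG00000026069, chromosome 1, 40429570 to 40465415, plus strand, mm10), which encodes the IL-33 receptor, was abundant in all 4 groups. It held 328 and 428 CPM in the sgSCR libraries, against 354 and 332 in sgMif, 471 and 431 in shSCR, and 587 and 402 in the libraries labelled shMif. The group means ran from 343 ± 15.5 CPM in sgMif to 495 ± 131 in shMif (SD, n = 2), and sgSCR overlapped sgMif as shMif overlapped shSCR. The log2 fold change was -0.14 ± 0.21 in sgMif against sgSCR (edgeR adjusted p = 0.768) and 0.13 ± 0.21 in shMif against shSCR (adjusted p = 0.867), so no change was detected in either.

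The reads of Il1rl1 fell mainly on a short transcript. Il1rl1-203, with 1011 coding bases before its stop codon, is an annotated form that ends before the transmembrane part, as soluble ST2 does. Il1rl1-202, with 1701, runs on to the long form. Both begin near the proximal start and share their first 985 coding bases. At base 40446675 the short transcript reads on into the intron and the long one is spliced to base 40450075. The coding bases on both sides of that point are given here, with those of each transcript alone in capitals, because they tell the 2 forms apart.
Il1rl1-203, short: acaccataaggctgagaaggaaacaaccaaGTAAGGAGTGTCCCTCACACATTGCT
Il1rl1-202, long: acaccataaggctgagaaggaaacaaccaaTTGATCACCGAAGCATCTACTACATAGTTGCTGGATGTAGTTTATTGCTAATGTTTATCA

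The short transcript stood at 130 and 173 TPM in sgSCR 1 and 2, 149 and 132 in sgMif, 156 and 168 in shSCR, and 248 and 154 in the libraries labelled shMif. The long one stood at 23.0 and 28.5, 21.9 and 18.5, 28.3 and 21.7, and 33.7 and 20.4 TPM in the same order. The short form was thus 5.51 to 7.75 times as high as the long one in every library, and took 72.3 to 78.6% of the reads given to these 2 transcripts. Its share in sgSCR, 72.7 and 74.1%, lay below that in sgMif, 76.3 and 77.1%, while in the hairpin control it was 72.3 and 78.6%, on both sides of the 77.6 and 78.1% of the libraries labelled shMif. With 2 libraries a group these shares carry no test. Unspliced long RNA and the short transcript share the intron stretch and cannot be separated by these tables. The transcripts from starts further upstream, Il1rl1-204 and Il1rl1-205, took 5.65% of Il1rl1 reads in shSCR 1 and at most 1.36% elsewhere.

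**Figure D3:**
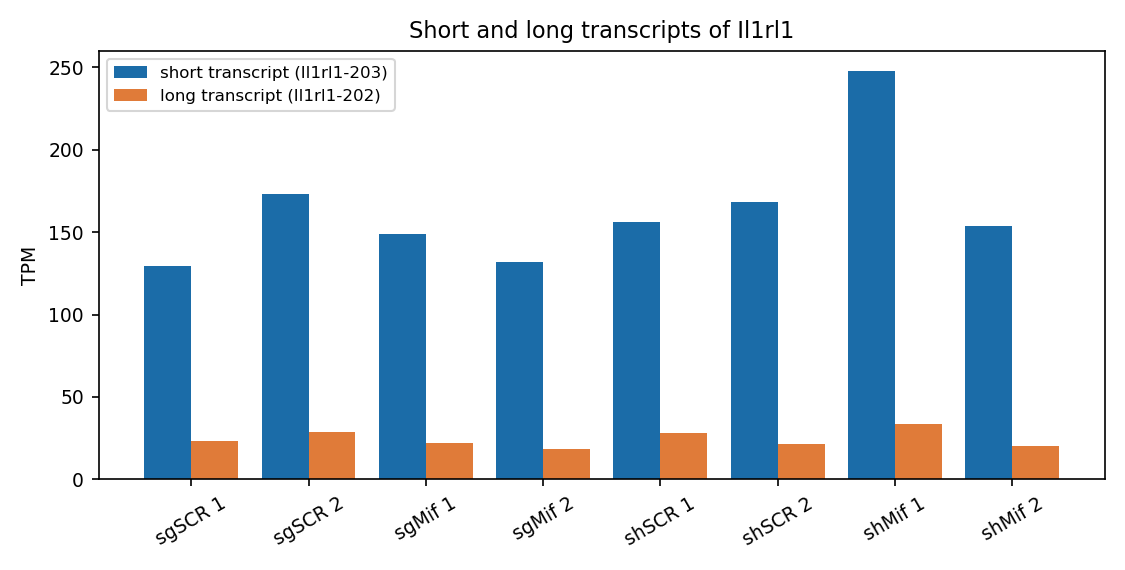
TPM of the short (Il1rl1-203) and long (Il1rl1-202) transcripts of Il1rl1 as bars from 0 in each of the 8 libraries. The short transcript is the higher bar in every library, at 130 to 248 TPM against 18.5 to 33.7.

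Mast cells carry ST2, and their markers stood at different levels in the groups. The 7 mast cell markers summed to 16.3 and 8.87 CPM in the sgSCR libraries, against 1.10 and 2.12 in sgMif, 1.30 and 3.85 in shSCR and 16.9 and 10.4 in the libraries labelled shMif. Of the 5 tested, edgeR called 0 in either Mif comparison. An unadjusted p under 0.05 was found for 4 in sgMif and 3 in shMif, and for 2706 and 1511 of the 16309 genes tested. In sgMif 1 the mast cell proteases Mcpt4, Cma1, Cpa3 and Tpsb2 had 0 reads and Kit had 24 (1.10 CPM), and Il1rl1 stood at 354 CPM. The part of mast cells in the Il1rl1 level was not tested. Type 2 cytokines were near the detection limit: Il5 and Il13 were at or under 0.103 CPM in every library, Il4 had reads in sgSCR 1 alone at 0.201 CPM, and Il25 had 0 reads. Eosinophil markers summed to 0.0902 to 3.19 CPM, with the peroxidase gene Epx at 0 in all 8 libraries.

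The IL-6 family ligands were lower in sgMif than in sgSCR without passing the test. Il11, which drives fibroblast and stromal responses, held 13.0 and 13.1 CPM in the sgSCR libraries, against 4.75 and 5.005 in sgMif, 6.20 and 7.69 in shSCR, and 7.26 and 3.41 in the libraries labelled shMif. Both sgSCR libraries lay above the other 6. The log2 fold change in sgMif was -1.42 ± 0.37 (edgeR adjusted p = 0.110), and the 2 sgMif libraries differed from each other by far less than from sgSCR. DESeq2 gave -1.44 (adjusted p = 0.0107) and edgeR without the low-count filter -1.40 (adjusted p = 0.00697), so the call depends on the tool and the filter. All Il11 reads were assigned to Il11-201, which begins at the proximal start shown above.

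Il6, the acute inflammatory member, was scarce. Its levels were 2.51 and 1.496 CPM in the sgSCR libraries, against 0.365 and 0.541 in sgMif, 1.19 and 0.827 in shSCR, and 1.75 and 0.796 in the libraries labelled shMif, from 8 to 100 reads per library. The log2 fold change was -2.13 ± 0.67 in sgMif (edgeR adjusted p = 0.169) and 0.32 ± 0.64 in shMif (adjusted p = 0.902). The sgMif libraries were the lowest of the 8.

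Lif, which keeps stem cells undifferentiated and acts through LIFR and gp130, differed by system more than by Mif label. It held 24.3 and 27.0 CPM in the sgSCR libraries, against 19.4 and 20.6 in sgMif, 13.6 and 15.6 in shSCR, and 17.04 and 10.4 in the libraries labelled shMif. Every guide library lay above every hairpin library in CPM, though not in TPM. The log2 fold change was -0.35 ± 0.24 in sgMif (edgeR adjusted p = 0.499), -0.10 ± 0.25 in shMif (adjusted p = 0.924) and -0.81 ± 0.25 in shSCR against sgSCR (adjusted p = 0.102, and 0.033 by DESeq2).

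Among the colony-stimulating factors, Csf1 was the highest and its groups were ordered without overlap. Csf1 (ENSMUSG00000014599, chromosome 3, 107741048 to 107760469, minus strand, mm10) held 285 and 304 CPM in the sgSCR libraries, against 253 and 256 in sgMif, 126 and 158 in shSCR, and 204 and 204 in the libraries labelled shMif. It was 2.07-fold lower in shSCR than in sgSCR (-1.05 ± 0.14, edgeR adjusted p = 0.0121), in a comparison that called 4.02% of all genes (2.23% higher, 1.79% lower) and, of the 10 here, Il33 and Csf1. Without sgSCR 1 or sgSCR 2 the values were -1.09 and -0.98 and the call was lost (adjusted p = 0.0578 and 0.0897). In sgMif against sgSCR it stood at -0.21 ± 0.14 (adjusted p = 0.483).

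In the hairpin system Csf1 stood 1.44-fold higher in the libraries labelled shMif (0.53 ± 0.14, edgeR adjusted p = 0.441), which did not pass where 0.0184% of genes did. DESeq2 called it (0.55, adjusted p = 0.0423), in a fit that called 175 genes of all where edgeR called 3. Without shSCR 2 edgeR gave 0.69, from a control arm of 1 library that is assumed to vary like the other groups. Csf1-201, which has 1656 coding bases, as Csf1-203 does, took the smallest part of Csf1 reads in shSCR 1, at 49.1%, and 60.1 to 80.5% elsewhere. The genes nearest to Csf1 in pattern were Plekhg2 (0.089), Lhfpl2 (0.089), Nol3, an inhibitor of apoptosis (0.099), Agpat2, of phosphatidic acid synthesis (0.110), and Dok1, a docking adaptor (0.111). All 5 had their lowest levels in shSCR, as follows from choosing them by pattern.

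Il34, the other CSF1R ligand, had the opposite order of systems. It held 18.5 and 19.7 CPM in the sgSCR libraries, against 12.1 and 14.3 in sgMif, 22.8 and 24.6 in shSCR, and 30.6 and 36.6 in the libraries labelled shMif. The groups did not overlap, and shMif was the highest for Il34 while sgSCR was the highest for Csf1. The log2 fold change was -0.53 ± 0.18 in sgMif (edgeR adjusted p = 0.190) and 0.50 ± 0.17 in shMif (adjusted p = 0.489). In shSCR against sgSCR it was 0.32 ± 0.17 (adjusted p = 0.32), so the order of the control groups did not pass. The difference between the systems was 1.03 ± 0.25 (adjusted p = 0.162), which DESeq2 called (1.07, adjusted p = 0.0191). Csf1r, the receptor of both and a macrophage marker, held 23.1 and 11.4 CPM in the sgSCR libraries, against 12.6 and 9.09 in sgMif, 16.2 and 18.3 in shSCR, and 30.7 and 13.9 in the libraries labelled shMif.

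Csf2, which encodes GM-CSF, had its highest levels in the hairpin system. It held 1.99 and 1.15 CPM in the sgSCR libraries, against 1.10 and 0.361 in sgMif, 4.02 and 4.10 in shSCR, and 4.02 and 1.93 in the libraries labelled shMif. shMif 1 equalled shSCR 1 to 3 digits, and shMif 2 lay just below sgSCR 1. Its log2 fold change was -1.15 ± 0.65 in sgMif (edgeR adjusted p = 0.419), -0.45 ± 0.62 in shMif (adjusted p = 0.849) and 1.36 ± 0.63 in shSCR against sgSCR (adjusted p = 0.243).

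Csf3 was low in both Mif-targeted groups. Its reads numbered 27 and 34 in sgSCR 1 and 2, 3 and 5 in sgMif, 109 and 47 in shSCR, and 2 and 8 in the libraries labelled shMif. In normalised terms this was 0.679 and 1.70 CPM in the sgSCR libraries, against 0.137 and 0.113 in sgMif, 2.83 and 0.949 in shSCR, and 0.103 and 0.228 in shMif. Each targeted library lay below both of its own controls, a pattern in both systems that 4.18% of all genes tested showed. Csf2 shared it by the narrowest margin in CPM, and not in TPM. Of the 10 genes, 0 lay above their controls in both systems, as 4.57% of genes did. Pooling the reads of each group gave 8.45 times fewer in sgMif (95% exact interval 4.03 to 20.4) and 9.66 times fewer in shMif (5.12 to 20.6), where the intervals cover counting error only.

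With the spread between libraries taken into account, Csf3 did not pass. The edgeR log2 fold change was -3.22 ± 0.92 in sgMif (adjusted p = 0.140), -3.43 ± 0.91 in shMif (adjusted p = 0.439) and -3.33 ± 0.63 over both systems in an additive fit (adjusted p = 0.164). That joint fit called 0% of genes, with 1306 at an unadjusted p under 0.05. DESeq2 called Csf3 in sgMif (-3.27, adjusted p = 0.0496) and not in shMif (-3.44, adjusted p = 0.0826), and edgeR without the low-count filter called it in both and in the joint fit (-3.35, adjusted p = 0.000959). Neutrophil markers summed to 12.9 and 4.74 CPM in the sgSCR libraries, against 14.2 and 3.31 in sgMif, 29.4 and 5.99 in shSCR and 24.4 and 3.98 in the libraries labelled shMif, and thus followed the library number more than the Mif label.

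Tslp was close to the detection limit. Its reads numbered 21 and 7 in sgSCR, 6 and 1 in sgMif, 2 and 5 in shSCR, and 5 and 1 in the libraries labelled shMif. Of these 48 reads, 46 were assigned to Tslp-202, an annotated retained-intron transcript without a coding sequence, and 2 to the coding transcript. The log2 fold change in sgMif was -1.67 ± 1.47 (edgeR adjusted p = 0.601).

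Set side by side, the 10 genes leaned one way in the guide system and not in the hairpin system. They were chosen with earlier results of these data known, so the lean is described here and is not an independent test. In sgMif against sgSCR all 10 fold changes were negative, with a median of -1.28 against -0.01 over all genes tested, and 9 genes had both sgMif libraries below both sgSCR libraries, as 24.2% of all genes did. The exception was Il1rl1. In shMif against shSCR 4 were negative and 6 positive, with a median of 0.23 against 0.03 over all genes. There edgeR called 0 of the 10, with 4 at an unadjusted p under 0.05, as were 1511 of the 16309 genes tested. Csf2 and Csf3 had both shMif libraries below both shSCR libraries, as 22.3% of genes did, and Il33, Csf1 and Il34 had both above, as 19.4% did. For Csf2 this held in CPM only, since in TPM shMif 1 at 9.01 lay above shSCR at 8.11 and 8.56. In shSCR against sgSCR, 6 of the 10 lay below without overlap, as 26.3% of genes did, and 3 above, as 28.4% did. Il33, Il11, Lif, Csf1 and Tslp were higher in both sgSCR libraries than in any of the other 6, as were 8.04% of genes.

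**Figure D4:**
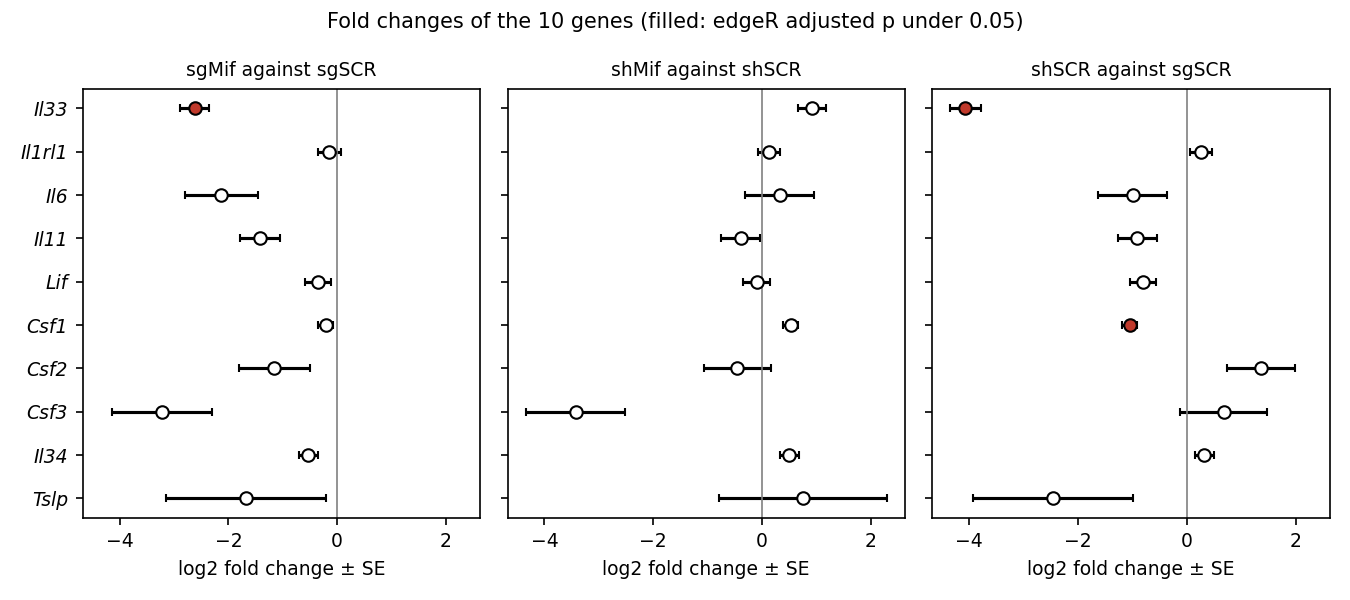
Log2 fold change with its standard error for each of the 10 genes in 3 comparisons, from edgeR, with filled points for an adjusted p under 0.05. All 10 lie below 0 in sgMif against sgSCR, with Il33 the filled point at -2.62, and Il33 and Csf1 are the filled points in shSCR against sgSCR.

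The receptors and signalling genes of these cytokines had medians closer to 0. Of 14 receptor genes, edgeR called 0 in sgMif against sgSCR, with a median of -0.34, and 0 in shMif against shSCR and in shSCR against sgSCR. In sgMif 2 of the 14 had an unadjusted p under 0.05, as did 2706 of the 16309 genes tested. Csf2rb and Csf2rb2, the beta chains of the GM-CSF receptor family, had the smallest p: Csf2rb held 12.4 and 8.97 CPM in the sgSCR libraries, against 4.79 and 2.53 in sgMif (-1.56 ± 0.44, edgeR adjusted p = 0.135), and Csf2rb2 stood at -1.64 ± 0.45 (adjusted p = 0.128). These are genes of blood cells, and the 10 macrophage markers summed to 323 and 176 CPM in the sgSCR libraries, against 138 and 105 in sgMif, 236 and 256 in shSCR and 410 and 211 in the libraries labelled shMif. Of them Mrc1 fell in sgMif (-4.18 ± 0.63, edgeR adjusted p = 0.0333), and it made up 107 and 34.0 CPM of the sums in sgSCR 1 and 2. Lyz2 alone had a positive fold change in sgMif (0.47 ± 0.38, adjusted p = 0.571). The part of macrophages in the receptor values was not tested. Il11ra1 stood at -0.27 ± 0.15 (adjusted p = 0.396) and at 0.54 ± 0.14 in shMif against shSCR (adjusted p = 0.441), and Ptprz1, another receptor of IL-34, had at most 0.499 CPM.

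The shared chains were present throughout. Il6st ran from 121 to 183 CPM, Il1rap from 97.0 to 144 and Lifr from 12.1 to 35.1, and their log2 fold changes in sgMif against sgSCR lay between -0.02 and 0.11. In shMif against shSCR Lifr stood at -1.09 ± 0.32 (adjusted p = 0.457), from 35.1 and 22.7 CPM in shSCR and 15.2 and 12.1 in the libraries labelled shMif. Csf2ra, the GM-CSF binding chain, held 3.73 to 17.4 CPM and Csf3r 1.44 to 12.9.

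Of 25 other ligands of these families, 22 were matched by symbol and 15 passed the filter. edgeR called 0 of the 15 in sgMif against sgSCR, with a median of -0.16. An unadjusted p under 0.05 was found for 2 of them, as for 2706 of the 16309 genes tested. Osm, oncostatin M, held 9.33 and 5.58 CPM in the sgSCR libraries, against 2.15 and 2.84 in sgMif (-1.58 ± 0.48, edgeR adjusted p = 0.159), Il15 stood at 0.75 ± 0.30 (adjusted p = 0.269) and Il1rn, the IL-1 receptor antagonist, at -0.80 ± 0.54 (adjusted p = 0.491).

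Among 15 signal transducers 1 fell in sgMif against sgSCR, where 0.619% of all genes did. Stat5a, a STAT of cytokine receptors including that of GM-CSF, went from 41.8 and 47.1 CPM in sgSCR to 23.7 and 21.4 in sgMif (-0.98 ± 0.15, edgeR adjusted p = 0.0337). Jak2 stood at -0.85 ± 0.17 (adjusted p = 0.0597), Jak1 at 0.55 ± 0.16 (adjusted p = 0.138) and Irak2, of the IL-1 and IL-33 receptor pathway, at -0.82 ± 0.24 (adjusted p = 0.147). In shSCR against sgSCR, which uses the same sgSCR libraries, Stat5a and Jak2 fell, where 1.79% of all genes did. Both lay just under the threshold (edgeR adjusted p = 0.048 and 0.0473).

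Targets and feedback genes of STAT3 and STAT5 leaned lower in sgMif. This list too was chosen with earlier results of these data known, so its lean is not an independent test. Of 15 tested, 2 fell, where 0.619% of all genes did. All 15 fold changes were negative, with a median of -1.14 against -0.01 over all genes. In shMif against shSCR edgeR called 0, and 6 of 15 were negative, with a median of 0.39. There 1 had an unadjusted p under 0.05, as did 1511 of the 16309 genes tested. Bcl6, a transcriptional repressor, went from 39.6 and 42.2 CPM in sgSCR to 17.3 and 20.8 in sgMif (-1.10 ± 0.16, edgeR adjusted p = 0.033), and Il4ra, the receptor of IL-4 and IL-13, from 128 and 94.0 to 54.8 and 37.3 (-1.28 ± 0.22, adjusted p = 0.0413). The kinase Pim1 stood at -0.92 ± 0.18 (adjusted p = 0.0603) and Cebpd, a transcription factor, at -1.94 ± 0.54 (adjusted p = 0.131). Socs3, the feedback inhibitor of gp130, held 350 and 409 CPM in the sgSCR libraries, against 219 and 256 in sgMif (-0.67 ± 0.22, adjusted p = 0.184). In shSCR against sgSCR, with the same sgSCR libraries, 13 of the 15 were negative, with a median of -0.87, and Bcl6 fell (-0.93, edgeR adjusted p = 0.0238). In sgMif against sgSCR the macrophage markers (9 of 10 negative, median -1.17) and the skin fibroblast markers (7 of 8, median -1.05) leaned the same way, and their part in the values of the STAT targets was not tested. In shSCR 1 and 2, Junb held 228 and 1209 CPM, Cebpb 91.5 and 321 and Cebpd 26.2 and 91.3. Socs2, Pim1, Bcl6, Lcn2, Il4ra and Saa3 were higher in shSCR 1, with Saa3 at 27.3 and 7.16 CPM. The part of shSCR 1 in the medians of the comparisons with shSCR was not tested.

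**Figure D5:**
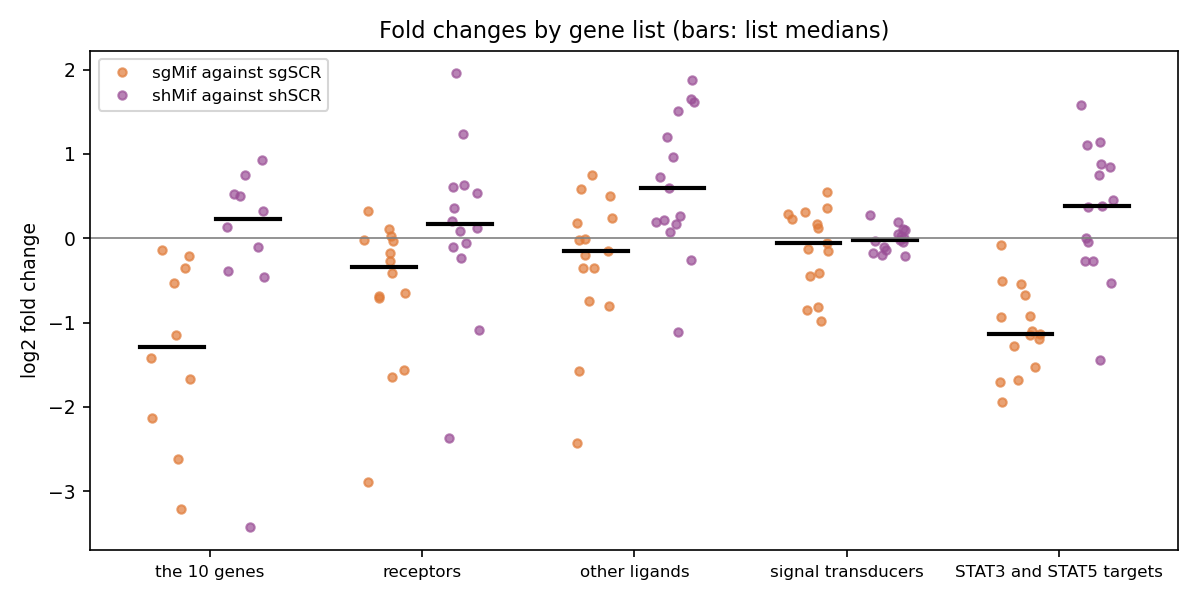
Log2 fold changes of the tested genes in 5 lists, in sgMif against sgSCR and in shMif against shSCR, with a bar at each list's median. In sgMif against sgSCR the medians are -1.28 for the 10 cytokine and receptor genes and -1.14 for the STAT3 and STAT5 targets, and in shMif against shSCR they are 0.23 and 0.39.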

How the data were processed

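RNA was measured in 8 libraries, 2 per group, with groups and replicate numbers taken from the sample titles. The submitters' processing notes name Trimmomatic, Salmon and mm10, without versions or options. Per the file headers, the deposited tables give an estimated count of reads and a TPM value, computed by the authors from effective length, for each of 116546 transcripts. TPM includes short transcript models, which can raise a gene's sum.

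Transcripts were joined to GENCODE M21 genes, of which 115977 matched, and unmatched ones held 0.101 to 0.205% of reads. Estimated counts were summed per gene and rounded. Libraries of a group differed by more than counting noise (chi-square per degree of freedom 24 in sgSCR, 43.2 in sgMif, 34.9 in shMif and 120 in shSCR). edgeR 4.0.16 (R 4.3.3) kept 16309 genes with filterByExpr (minimum count 10, minimum total 15), scaled libraries by TMM and tested them with the quasi-likelihood test. Adjusted p-values are Benjamini-Hochberg values over all genes tested, with a threshold of 0.05. A single model with a mean for each of the 4 groups (4 residual degrees of freedom) gave all comparisons of groups, and an additive model (5) gave the joint effect. SE is the log2 fold change divided by the square root of F. CPM values were computed here.

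The genes and lists were chosen with earlier results of these data known. All 10 members are named, with up to 4 genes of smallest p per list and the 5 genes nearest in pattern to Il33 and to any other called member (mean log2 CPM of at least 1, predicted genes left out). Any other gene named was chosen after its values were seen. Some genes that the rule names are not reported here. The symbols Il36a, Il36b and Il36g had no match in the annotation. Alternatives were relative log expression factors, DESeq2 1.42.0, no filter, length-scaled counts, coding transcripts only, replicate blocks, each system alone, the high olfactory class, and leaving out each library. The fits were tested on simulated data. Exact intervals were computed with scipy 1.17.1 in Python 3.11.15.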

Additional observations from a re-analysis of the deposited data

Results flagged for a closer look

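The change of Il33 with the Mif label differed between the guide and hairpin systems by 3.55 on the log2 scale (SE 0.36, edgeR adjusted p = 0.0375 for the difference). It was -2.62 in sgMif against sgSCR and 0.93 in the libraries labelled shMif against shSCR. A fall of Mif itself was called in neither comparison (-0.91, edgeR adjusted p = 0.215, and -0.13, edgeR adjusted p = 0.925). The difference was 3.46 and 3.56 without sgSCR 1 or 2, 3.25 without sgMif 2, and 3.36 and 3.71 without shMif 1 or 2, and in each of these 5 fits the call was lost (edgeR adjusted p = 0.0651 to 0.166).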

How the results depend on the processing

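Il33 kept its direction in sgMif against sgSCR in all alternatives run for it, from -2.92 to -2.35. The members called there numbered 1, and became 3 with DESeq2 (Il33, Il11 and Csf3), 3 without the low-count filter, 0 with counts scaled by transcript length (Il33 -2.37, edgeR adjusted p = 0.054) and 0 to 1 when single libraries were left out. In shMif against shSCR the count of 0 became 1 with DESeq2 (Csf1), 1 without the filter (Csf3), 1 in the high olfactory class (Csf1) and 0 to 1 when single libraries were left out. For the difference between systems the count of 1 became 3 with DESeq2, 0 with length scaling, 0 with coding transcripts only, 2 in the high olfactory class and 0 to 2 when single libraries were left out. In shSCR against sgSCR 2 members were called, 3 with DESeq2, without the filter and in the high olfactory class (Il33, Csf1 and Lif), and 1 to 2 when single libraries were left out. The joint count of 0 became 2 without the filter (Il33 and Csf3). The cause of these changes was not tested. The high olfactory class holds both sgSCR libraries and 1 library of each other group, so its spread comes from sgSCR alone and the lone libraries are assumed to vary like it; the same assumption holds for a group left with 1 library.

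Signs turned for uncalled values only. In shMif against shSCR, Il11 became 0.23 and Lif 0.32 in the high olfactory class, and Lif 0.08 with length scaling. In the joint fit Il1rl1 became 0.08 and Tslp 0.50 in the high olfactory class, and Il34 0.24 with length scaling. Leaving out single libraries gave ranges that cross 0: in sgMif against sgSCR -0.33 to 0.08 for Il1rl1, and in shMif against shSCR -0.16 to 0.37 for Il1rl1, -0.34 to 0.79 for Il6, -1.02 to 0.06 for Il11, -0.50 to 0.21 for Lif and -1.34 to 1.68 for Tslp. The difference between systems ran from -0.03 to 0.51 for Il1rl1, -0.15 to 0.56 for Lif and -1.08 to 0.75 for Csf3, and shSCR against sgSCR from -0.30 to 1.52 for Csf3. The joint effect ran from -0.15 to 0.10 for Il1rl1, -0.15 to 0.13 for Il34 and -1.55 to 0.16 for Tslp.

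Libraries of the same number in a system deviated together only weakly (correlation 0.182 and 0.263), and no label pairs them. With a replicate block over all libraries the members called were 1, 0, 1, 2 and 0 in the 5 comparisons, as without it, and genes called in sgMif against sgSCR went from 161 to 459, or to 263 with a block within systems. Over all alternatives the genes called ran from 0 to 1494 in sgMif against sgSCR (main 161; DESeq2 990; length scaling 18; high olfactory class 534), 0 to 1162 in shMif against shSCR (main 3; DESeq2 175; no filter 662), 0 to 1306 for the difference (main 15; DESeq2 654), 60 to 2747 in shSCR against sgSCR (main 655; DESeq2 1953) and 0 to 549 for the joint effect (main 0; DESeq2 280). Fitting each system alone gave no value for comparisons across systems. Depth limits Tslp, Csf3, Il6 and Csf2, with 1 to 203 reads per library.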
